A study of Mus musculus and Rattus norvegicus with 4 samples.

Results

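The 424 strongest MEF2A peaks of differentiating C2C12 cells are described here. They are the peaks with a score of 200 or more in the deposited mouse list, 424 of 2797 peaks (15.2%), and they are set against the 2373 peaks of lower score in the same list. The score itself chose them, so their scores, and their widths from the same peak calling, are given as a description with no test. MEF2A was mapped by ChIP-exo, in which the immunoprecipitated DNA is trimmed by an exonuclease up to the edge of the bound protein. C2C12 is a clonal mouse myoblast line that fuses into myotubes when serum is lowered, and these cells had spent 48 h in differentiation medium with 2% horse serum. The series holds 4 libraries, MEF2A and IgG in C2C12 and in rat cardiomyocytes, with 1 library per group. Of these, the MEF2A library of C2C12 was used. Read depth is unknown, and peaks of 1 library are not replicates of a condition, so each test compares peaks within this list and covers counting error only.

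MEF2A belongs to the myocyte enhancer factor 2 family of MADS-box transcription factors. These proteins bind an A/T-rich element as dimers, cooperate with the MyoD family in muscle differentiation, and answer calcium and MAP kinase signals, partly through the release of class IIa histone deacetylases. Known targets include sarcomere genes in muscle and immediate early genes such as Jun in many cell types.

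A few strong peaks lay on annotated promoters, which included those of genes of the contractile apparatus and of the immediate early response. The strong peaks overlapped 23 of 32851 promoter windows (0.0700%), each reaching from 250 bases upstream to 50 bases downstream of a RefSeq start site. These windows belonged to 20 peaks, 16 windows being of protein-coding genes and 7 of long noncoding RNAs. The lower peaks made 79 overlaps with windows through 65 peaks, and each overlap is counted as a window below. The windows of Jarid2 and Agk thus count more than once, through separate lower peaks. That of Gm32011 counts on both sides, through a strong peak (301) and a lower one (96.78). Among peaks on chromosomes with listed start sites, a window was overlapped by 20 of 409 strong peaks (4.89%, exact 95% interval 3.01 to 7.45%) and 65 of 2262 lower ones (2.87%, 2.23 to 3.65%). The difference did not pass Fisher's exact test after adjustment (p = 0.0448, adjusted p = 0.0897 over 4 tests of promoters and start sites added after the values were seen). Strong peaks are wider, as given below, and the part of width in this share was not tested. The sequences of 8 of these promoters are shown, of muscle or immediate early genes or with a match to the MEF2 consensus. Some others that fit this description, such as Calhm5 and Rapgef6, are not shown. That consensus is CTA, then 4 bases that are each A or T, then TAG, and it reads the same on both strands. Each sequence is the stretch that lies both inside the peak and upstream of the start site, written 5′ to 3′ on the strand of the gene, from RefSeq on GRCm38.p6. Capitals mark a match to the consensus with at most 1 mismatch.
Jun (chr4.0:95052223.0-95052470.0, minus strand): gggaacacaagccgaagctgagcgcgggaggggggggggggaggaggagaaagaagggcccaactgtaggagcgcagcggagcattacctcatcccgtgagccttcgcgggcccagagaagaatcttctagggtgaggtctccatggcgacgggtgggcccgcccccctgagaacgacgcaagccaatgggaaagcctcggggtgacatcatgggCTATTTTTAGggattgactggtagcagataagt
Atf3 (chr1.0:191183334.0-191183583.0, minus strand): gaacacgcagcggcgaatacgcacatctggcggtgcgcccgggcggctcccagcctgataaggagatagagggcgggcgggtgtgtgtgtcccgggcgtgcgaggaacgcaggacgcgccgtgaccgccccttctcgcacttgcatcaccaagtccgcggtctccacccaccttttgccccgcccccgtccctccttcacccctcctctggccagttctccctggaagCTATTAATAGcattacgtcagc
Lmod2 (chr6.0:24597521.0-24597770.0, plus strand): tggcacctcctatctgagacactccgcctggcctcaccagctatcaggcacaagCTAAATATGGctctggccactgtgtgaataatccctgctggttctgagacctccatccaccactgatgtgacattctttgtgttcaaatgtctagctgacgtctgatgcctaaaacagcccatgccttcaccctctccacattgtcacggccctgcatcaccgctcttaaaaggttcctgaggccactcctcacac
Palld (chr8.0:61902708.0-61902957.0, minus strand): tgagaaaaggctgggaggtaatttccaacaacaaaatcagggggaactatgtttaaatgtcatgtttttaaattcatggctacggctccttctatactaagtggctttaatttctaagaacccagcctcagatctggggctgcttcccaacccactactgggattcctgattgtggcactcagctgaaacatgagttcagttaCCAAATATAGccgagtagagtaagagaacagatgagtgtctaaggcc
Creb5 (chr6.0:53287144.0-53287302.0, plus strand): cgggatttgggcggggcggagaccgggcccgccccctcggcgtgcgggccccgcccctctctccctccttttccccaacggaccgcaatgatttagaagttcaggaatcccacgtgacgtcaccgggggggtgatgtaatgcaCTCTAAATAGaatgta
Ankrd1 (chr19.0:36119845.0-36120094.0, minus strand): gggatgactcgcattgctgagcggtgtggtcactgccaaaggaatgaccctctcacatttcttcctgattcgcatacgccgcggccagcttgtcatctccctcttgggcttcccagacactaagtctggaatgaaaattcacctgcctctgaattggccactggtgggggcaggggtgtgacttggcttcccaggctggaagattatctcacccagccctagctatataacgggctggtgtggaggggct
Cavin4 (chr4.0:48663264.0-48663513.0, plus strand): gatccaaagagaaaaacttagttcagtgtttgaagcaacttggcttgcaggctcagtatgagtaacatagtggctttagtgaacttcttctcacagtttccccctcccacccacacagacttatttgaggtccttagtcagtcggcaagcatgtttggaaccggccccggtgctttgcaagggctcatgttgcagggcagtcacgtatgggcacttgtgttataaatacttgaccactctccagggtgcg
Tpm2 (chr4.0:43523655.0-43523804.0, minus strand): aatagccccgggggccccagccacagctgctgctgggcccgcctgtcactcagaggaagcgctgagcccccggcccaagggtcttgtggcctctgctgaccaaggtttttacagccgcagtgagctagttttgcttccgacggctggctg

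Jun and Atf3, both bZIP transcription factors of the immediate early response, held the consensus without a mismatch. In Jun (peak score 576.8) it was CTATTTTTAG, whose first base lay at position -33, counting the base before the start site as -1. In Atf3 (285.8) it was CTATTAATAG from position -22. The antisense long noncoding RNA Junos shares the peak and the site of Jun, read as CTAAAAATAG from position -71 of its own start.

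Matches with 1 mismatch lay inside the peak in the following protein-coding promoters. Lmod2, a leiomodin that nucleates and lengthens thin filaments (664.7), had CTAAATATGG from position -196. Palld, the actin-bundling protein palladin (395.9), had CCAAATATAG from -47. Creb5, a bZIP factor of the CREB family (436.8), had CTCTAAATAG from -16. Calhm5, a calcium homeostasis modulator family member with the highest-scoring promoter peak (1558.95), had CTATTAAAAG from -191, and Rapgef6, an exchange factor for Rap GTPases (209.6), had CTATTTTTGG from -192. The promoters of Ankrd1, Cavin4 and Tpm2 held no match with up to 1 mismatch, which says only that these letters are not in the windows searched.

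The exact consensus was in 3 of the 23 windows under strong peaks (13.0%, exact 95% interval 2.78 to 33.6%), including Jun and Junos through their shared site. It was in 4 of 79 windows under lower peaks (5.06%) and in 0.557% of all windows. Among those 4, overlapping windows of Dzip1l share a site that lay outside the peak. The difference between strong and lower peaks did not pass Fisher's exact test (p = 0.188, adjusted p = 0.262 over 6 motif tests). Counted by peak, the exact consensus was in the windows of 2 of 20 strong and 3 of 65 lower peaks. Allowing T for the first base and A for the last gave 3 of 23 windows against 10 of 79 (12.7%), with 3.19% among all windows. With up to 1 mismatch, an alternative added after seeing the data, 13 of 23 windows under strong peaks held a match (56.5%, 34.5 to 76.8%), against 21 of 79 under lower peaks (26.6%, 17.3 to 37.7%) and 7.79% of all. Fisher's exact test of that last comparison gave p = 0.0114 and adjusted p = 0.0684, above the threshold of 0.05. Counted by peak so that shared windows enter once, it was 11 of 20 strong against 19 of 65 lower peaks (Fisher's exact test, p = 0.0592, adjusted p = 0.149). Both counts with a mismatch take the whole window, also where the peak covers only part of it. The counted matches of 3425401B19Rik and Gm28651 lay outside their shared strong peak. How many matches of lower peaks lay outside the peak was not counted. The share of A and T bases was 46.3% ± 8.63 (SD over the 23 windows) under strong peaks, 45.6% ± 11.2 over the 79 windows under lower peaks and 46.2% ± 11.3 over all windows. The peaks far from promoters could not be searched, as no genome sequence was used.

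**Figure D1:**
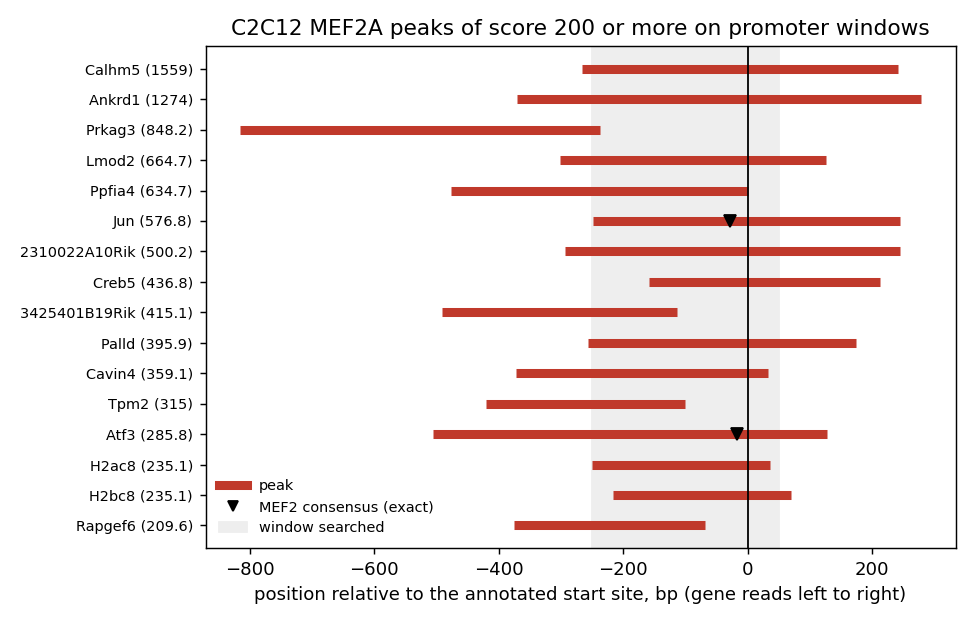
Strong peaks on promoter windows of protein-coding genes, as bars from peak start to peak end in bp relative to the annotated start site, with peak scores beside the gene names, the searched window in grey and a triangle at an exact MEF2 consensus. Triangles stand at Jun and Atf3 alone, and the peak of Prkag3 reaches only 14 bases into its window.

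Further promoters under strong peaks were those of muscle and signalling genes. Ankrd1 (1274.5) encodes a muscle ankyrin repeat protein that binds titin and is induced by stretch, and its peak spans the whole window. Cavin4 (359.1), a muscle-specific protein of caveolae, was covered over 283 of 300 bases, and Tpm2 (315.0), beta-tropomyosin, over 150 bases. Prkag3 (848.2), the gamma subunit of AMP-activated kinase typical of glycolytic muscle, had only 14 bases of its window inside the peak. That peak, chr1:74749192-74749771, begins 237 bp upstream of the listed start site. The annotated span of the gene reaches 74749471, within the peak. The window of the noncoding RNA Gm32191 lay under the peak assigned to Lmod3 (609.4), a leiomodin of skeletal muscle. Other protein-coding promoters were Ppfia4 (634.7), 2310022A10Rik (500.2), 3425401B19Rik (415.1) and the histone genes H2ac8 and H2bc8, which share 1 peak (235.1).

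The score of the strong set ran from 200 to 3100, with a median of 341.9 and quartiles of 255.2 and 509.1. The set is bottom-heavy, with 314 peaks between 200 and 500, 78 between 500 and 1000, and 32 at 1000 or above. Peaks just inside the threshold included those nearest Ctps (200.1), Nav1 (200.3), Micalcl (200.8) and Spag17 (200.8). Just outside lay those of Col4a2 (199.5), Tmem230 (199.5), Purb (199.5), Eya1 (199.0) and Sorcs3 (198.9), so no gap in score separates the sets.

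The next 20 peaks after the 10 highest, which include those of Fggy (3100) and Npas4 (2912.1), lay at genes of varied function. Atp10a, a phospholipid flippase, had the 11th peak (1655.82), 13.65 kb beyond its span on chromosome 7. Chit1, the secreted chitinase chitotriosidase, was 11.62 kb from a peak of 1582.34, which lay upstream of its start site. Hgf, hepatocyte growth factor and a ligand that activates muscle satellite cells, lay 13.57 kb from a peak of 1579.73. These peaks all lay outside the gene to which they are nearest.

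Peaks inside a span followed in Gipc2, a PDZ-domain adaptor (1529.4), Mxra7 (1480.15), Rapgef2, an exchange factor for Rap GTPases (1457.31), Cd300lb, an immunoglobulin-family receptor (1259.45), Aig1 (1160.46) and Itch, an E3 ubiquitin ligase (1121.38). Zfp474 had a peak of 1437.38 at the end of its span. Ifnlr1, the interferon lambda receptor, lay 9.598 kb from a peak of 1431.52 upstream of its start site, and Gorab, a Golgi protein, 2.13 kb from one of 1395.54. Eya1, a transcriptional cofactor in muscle development, had its nearest strong peak 48.98 kb away (1224.9), and Lpp, a LIM protein of focal adhesions, 69.01 kb away (1180.05). Fhit was 229.8 kb from its peak (1485.07) and Ptbp2, a splicing regulator, 131.7 kb (1075.72), which is beyond the 100 kb used to assign genes. Nearest-gene names this far away are labels of position.

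Strong peaks were broader than lower ones. Their median width was 372 bp (quartiles 307 and 463), against 132 bp (114 and 182) for the lower peaks. Of the strong peaks 328 were wider than 300 bp (77.4%), against 113 of the lower ones (4.76%), and 6 were under 100 bp (1.42%), against 224 (9.44%). The median rose across score classes, from 120 bp at 50 to 100 and 211 bp at 100 to 200, to 339 bp at 200 to 500, 476.5 bp at 500 to 1000 and 601 bp at 1000 or above. Within the strong set the Spearman correlation of score and width was 0.68 over 424 peaks, and within the lower set it was 0.60 over 2373, both as a description, since both quantities come from 1 library and 1 caller.

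The widest strong peak, 3636 bp at chr1:24611531-24615166 with a score of 1283.4, overlies the pseudogenes Gm10222 and Gm10925 and lies 23.61 kb from Col19a1. The next widest were in Myo3a, an unconventional myosin (1233 bp, 603.4), Zfp474 (862 bp), near Tex44 (861 bp, 2066.64) and near Gm51579 (784 bp, 1163.64). The narrowest were in Deaf1 (47 bp, 211.6), Fam227b (53 bp, 311.4) and Acacb, the mitochondrial acetyl-CoA carboxylase (57 bp, 285.7), near Lnpep (57 bp, 216.6) and in Asxl3 (59 bp, 201.5). Zfp474 and Tex44 combine a high score with a wide call, whereas the 5 narrowest calls score under 320. The other strong peak under 100 bp, 73 bp wide, scored 388.3.

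**Figure D2:**
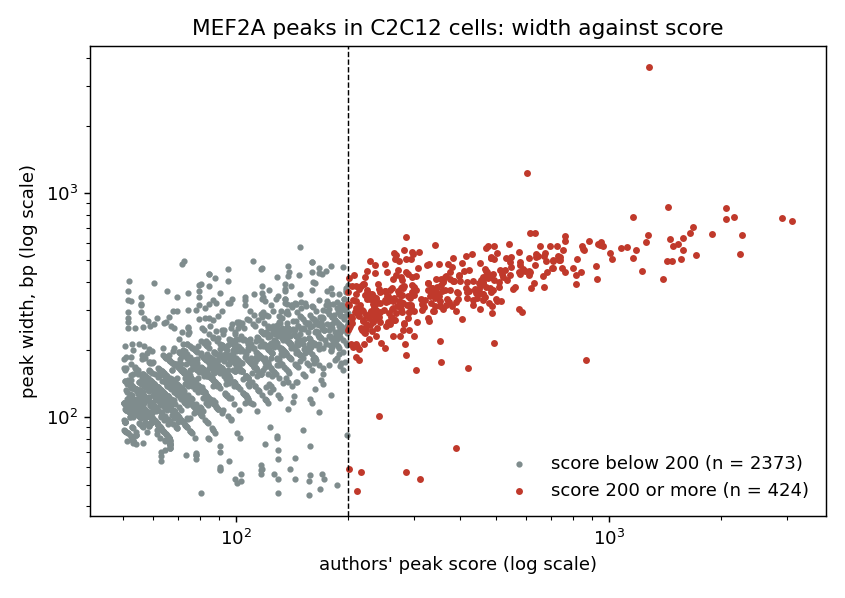
Peak width in bp (y axis) against peak score (x axis), both on log axes, for the 424 strong and the 2373 lower C2C12 peaks, with the dashed line at a score of 200. Median width is 372 bp to the right of the line and 132 bp to its left, and the peak of 3636 bp on chromosome 1 stands alone at the top.

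Location relative to genes took no part in the choice by score, and none of 5 location shares differed between strong and lower peaks beyond the test's threshold. Inside a protein-coding span lay 215 of 424 strong peaks (50.7%, exact 95% interval 45.8 to 55.6%) and 1101 of 2373 lower ones (46.4%, 44.4 to 48.4%; Fisher's exact test, p = 0.102, adjusted p = 0.414 over the 5 shares). Within 1 kb of an end of a span were 32 strong peaks (7.55%, 5.22 to 10.5%) against 158 lower ones (6.66%, 5.69 to 7.74%; exact test, adjusted p = 0.662). A gene lay within 100 kb of 360 strong peaks (84.9%) and 1946 lower peaks (82.0%; exact test, adjusted p = 0.414), and 164 strong (38.7%) against 971 lower peaks (40.9%) were over 10 kb from any (adjusted p = 0.652). Within 1 kb of a listed start site were 21 of 409 strong peaks (5.13%, 3.21 to 7.74%) and 106 of 2262 lower ones (4.69%), leaving out chromosome 18, which the promoter table lacks (exact test, adjusted p = 0.705). The intervals are of each share and not of the difference, and they leave room for differences of several percentage points.

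The exact placement varied within those shares. Of the strong peaks 8 lay within 1 kb outside a span (1.89%), 37 at 1 to 10 kb (8.73%), 100 at 10 to 100 kb (23.6%) and 64 farther away (15.1%). For peaks outside spans the median distance was 44.8 kb (quartiles 11.9 and 127.9), against 41.3 kb (11.1 and 151.9) for lower peaks. By score class the share inside a gene was 49.7% at 200 to 500, 55.1% at 500 to 1000 and 50% at 1000 or above, with no steady rise. A start site was covered by 11 of 409 strong peaks (2.69%, 1.35 to 4.76%) and 20 of 2262 lower ones (0.884%, 0.541 to 1.36%), which passed Fisher's exact test (p = 0.00441, adjusted p = 0.0176 over the same 4 added tests). It did not pass at a score threshold of 150 (adjusted p = 0.0657, exact test). Strong peaks are also wider, at a median of 372 against 132 bp, and the part of width in this share was not tested. Up to 1 kb upstream of a start site lay 8 strong (1.96%) and 51 lower peaks (2.25%; exact test, adjusted p = 0.855), and up to 1 kb downstream 2 strong (0.489%) and 35 lower peaks (1.55%; exact test, adjusted p = 0.144). Within genes of known strand, 25.7% of 167 strong peaks were in the first 25% of the span and 23.4% in the last 25%, against 26.7% and 23.0% of 810 lower peaks. A further 41 strong peaks lay inside a long noncoding RNA but in no protein-coding gene.

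**Figure D3:**
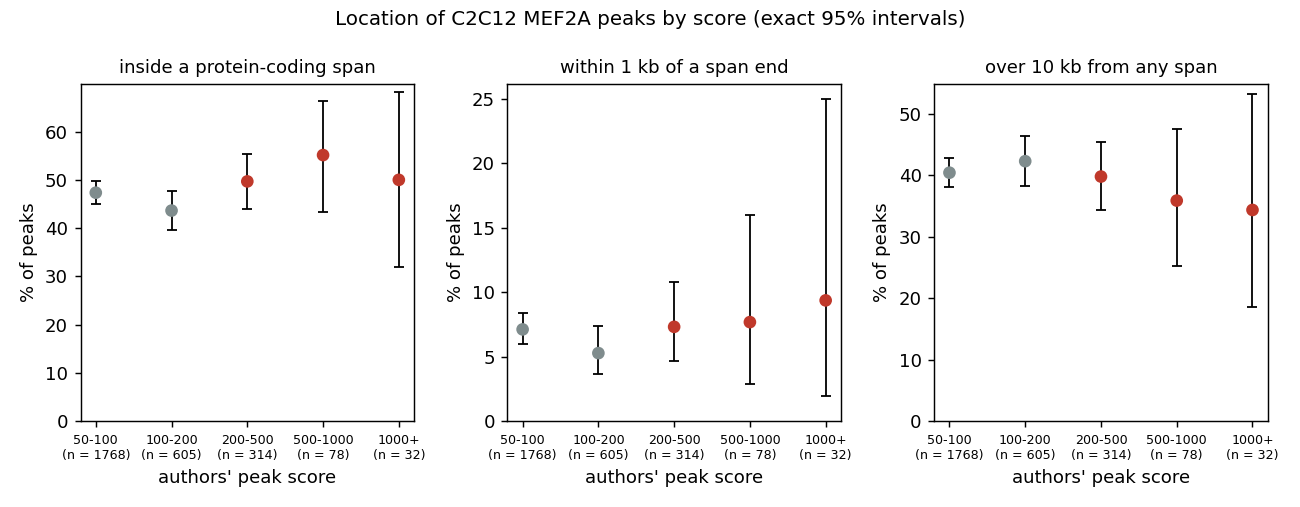
Share of C2C12 peaks (%) inside a protein-coding span, within 1 kb of a span end and over 10 kb from any span, by class of score, with lower classes in grey, strong classes in red and exact 95% intervals as bars. The share inside a span lies between 43.6% and 55.1% in all 5 classes, and the intervals are widest in the highest class of 32 peaks.

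The share of strong peaks varied between chromosomes, with no test made. Chromosome 1 held 62 of the 424, which is 23.0% of its 270 peaks (exact 95% interval 18.1 to 28.4%), against 15.2% in the whole list. On chromosome 5 the share was 7 of 102 (6.86%, 2.80 to 13.6%) and on X 3 of 61 (4.92%, 1.03 to 13.7%). Chromosome Y had 8 peaks and none of them strong, which allows a share of up to 36.9%. Close neighbours were about as common for strong as for lower peaks, with another peak within 10 kb of 92 strong (21.7%) and 519 lower ones (21.9%).

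The 360 strong peaks within 100 kb of a gene were assigned to 334 protein-coding genes, 1.53% of 21887, and 64 peaks had no gene this near. Of these genes 133 (39.8%) also had a lower peak, and 1357 genes (6.20%) had lower peaks only. A strong peak was thus present at 19.8% of all genes with any peak (7.73% of genes). Genes with a strong peak had a median length of 72.1 kb, against 60.8 kb for genes with lower peaks only and 15.8 kb for genes with no peak. Under nearest-span assignment a longer gene takes in more of the genome, and the part of length in the counts that follow was not tested.

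Several strong peaks at 1 gene were seen at 27 genes (0.123%). Slc30a4, a zinc transporter, had 4 (613.9, 450.6, 351.2 and 273.9). Fam227b had 3 (404.4, 311.4 and 239.3), the highest and the lowest of which also lie in the overlapping span of Fgf7. Muscle and cytoskeletal genes with 2 were Synpo2, a Z-disc protein that binds actin (516.9 and 261.2), Palld (493.0 and 395.9), Ccdc141 next to titin (382.3 and 211.8), Mical3 (369.0 and 225.2) and Myo3a (603.4 and 325.3). Pakap, a paralemmin and A-kinase anchoring protein (2066.64 and 209.5), Lpp (1180.05 and 305.0) and Tenm3, a teneurin (820.8 and 259.8), paired a very strong peak with a weaker one.

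Vmp1 had the most peaks of any gene, 13, with 3 strong ones (282.1, 266.1 and 220.5) and 10 of lower score between 54.0 and 175.5. Its last part overlaps the primary transcript of Mir21a on chromosome 11, a microRNA induced in growth and injury. All 3 strong peaks and 5 of the lower ones, 8 in all, lay within 3 kb of the Mir21a hairpin. The strong peaks at chr11:86585439-86585831 (220.5) and chr11:86586389-86586926 (266.1) lay 1.281 and 2.231 kb upstream of the hairpin, and that at chr11:86582539-86583095 (282.1) lay 0.972 kb beyond its other end. Highest score and number of peaks therefore single out different genes, since the 3 strong peaks of Vmp1 all score below the median of the set.

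**Figure D4:**
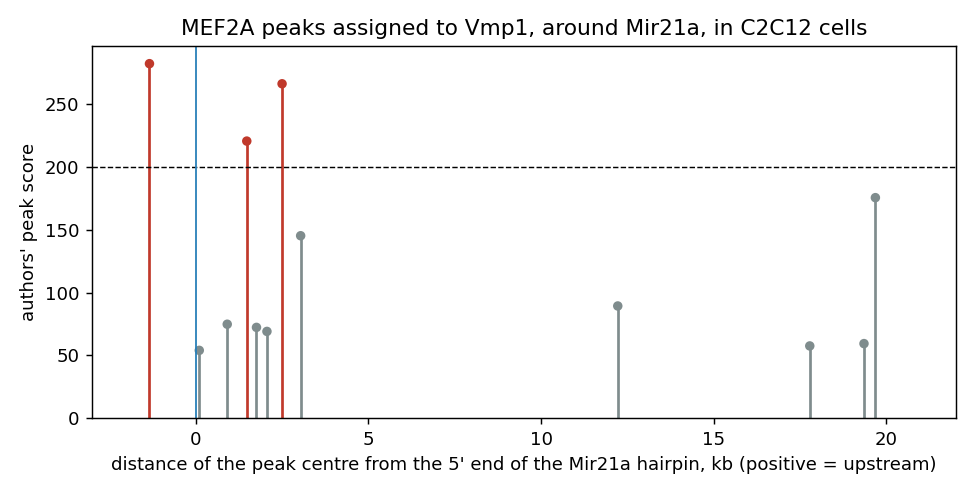
Score of each peak assigned to Vmp1 against the distance of its centre upstream of the 5′ end of the Mir21a hairpin (kb), with strong peaks in red, lower peaks in grey, the dashed line at a score of 200, the blue line at the hairpin and the peak at 99.1 kb outside the range drawn. The 3 strong peaks (282.1, 266.1 and 220.5) lie within 3 kb of the hairpin.

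MicroRNA hairpins were near few strong peaks, 8 of 1005 hairpins within 10 kb (0.796%). The cluster of Mir23a, Mir27a and Mir24-2 on chromosome 8 lay 4.822 to 5.119 kb from 1 peak, chr8:84203304-84203696 (240.1), and Mir3074-2 overlaps Mir24-2. Mir130a lay 8.824 kb from a peak of 814.3, Mir7043 3.418 kb from one of 464.9, and Mir6931 7.105 kb from one of 332.7. The mature forms of the better-known ones are given with the seed, bases 2 to 8, in capitals, from RefSeq. No seed is shared among them.
mmu-miR-21a-5p: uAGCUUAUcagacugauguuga
mmu-miR-23a-3p: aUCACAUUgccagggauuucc
mmu-miR-27a-3p: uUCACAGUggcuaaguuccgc
mmu-miR-24-3p: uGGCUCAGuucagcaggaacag
mmu-miR-130a-3p: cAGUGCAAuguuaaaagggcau

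Gene lists by function were counted for genes with a strong peak, to be read beside the 1.53% of all genes. The lists were chosen with earlier results of these data known, so they are no independent evidence. The dystrophin complex and costamere, which tie the sarcomere to the membrane, led with 7 of 30 genes (23.3%) and 8 more with lower peaks only. They included Sspn, sarcospan (803.9), Sgce, epsilon-sarcoglycan (708.9), Utrn, utrophin (583.9), Sntb1, a syntrophin (573.7), Tln2, a talin (483.9, at 76.19 kb), and Plec, plectin (237.9). Among its 15 genes with any peak, 46.7% had a strong one, against 19.8% over all genes. This share was not particular to the list. It was 50% in the anchoring (3 of 6 genes), energy metabolism (4 of 8) and neuron marker (1 of 2) lists. In calcium handling it was 12.5% (1 of 8) and in the endothelial list 0 of 2, so these shares rest on few genes. The median length of the genes in this list was 75.67 kb, against 29.99 kb for the 20 lists together and 17.2 kb for all genes.

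In the sarcomere, titin, Z-disc and desmin genes had strong peaks at 6 of 32 (18.8%). They were Ankrd1 (1274.5), Des, the muscle intermediate filament desmin (924.6, at 12.55 kb), Synpo2 (516.9), Palld (493.0), the desmin chaperone Cryab (306.1) and Xirp1, an actin-binding protein of the intercalated disc and myotendinous junction (215.5). Thin filament genes had them at 3 of 22 (13.6%), Lmod2, Lmod3 and Tpm2. Thick filament genes had 1 of 22 (4.55%), Myl4, the embryonic and atrial essential light chain (737.6). Over the 3 sarcomere lists this came to 10 of 76 genes (13.2%), with 20 more having lower peaks only, and the myosin heavy chain, actin and titin genes were absent from the strong set.

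Immediate early genes had strong peaks at 4 of 32 (12.5%), namely Npas4, an activity-induced factor (2912.1), Btg2, an antiproliferative gene (615.1, at 3.653 kb), Jun (576.8) and Atf3 (285.8). Integrin and focal adhesion genes had 3 of 26 (11.5%), Lpp and the tensins Tns3 (278.6) and Tns1 (206.6), of which only Lpp scores above 300. Genes that anchor kinases and phosphatases had 3 of 28 (10.7%), Pakap, Akap6, which holds protein kinase A at the nuclear envelope of myocytes (1710.76), and Ppp1r12b, a myosin phosphatase subunit (360.0). Energy metabolism had 4 of 38 (10.5%), Fggy, a carbohydrate kinase, Prkag3 (848.2), Pparg (355.1) and Ppargc1a, the mitochondrial coactivator PGC-1alpha (276.8). Secreted growth factors had 4 of 45 (8.89%), Hgf, Fgf10 (710.8), Fgf7 (404.4) and Vegfa (320.5, at 71.69 kb).

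Cardiac and developmental factors had 4 of 50 (8%), the Runt factors Runx1 (359.0, at 27.73 kb) and Runx2 (297.2), Tbx20 (355.8) and Mitf (248.9). Muscle regulators had 3 of 39 (7.69%), Eya1, Cavin4 and the splicing factor Celf2 (342.2). The MEF2, class IIa deacetylase and cofactor list had 2 of 28 (7.14%), Dot1l, a histone H3 methyltransferase (2172.01), and Mrtfa, a coactivator of serum response factor (210.5). No MEF2 gene had a strong peak, and Mef2c had 3 lower ones, the highest at 100.2.

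Extracellular matrix and CCN genes had 3 of 47 with a strong peak (6.38%), Matn2, a matrilin (2277.08), Postn, periostin (762.6, at 89.23 kb), and Ccn4 (645.2), and 19 more with lower peaks only. MAP kinase and dual-specificity phosphatase genes had 2 of 47 (4.26%), Mapkapk2, the p38 effector kinase (307.5), and Map3k4 (209.7), with 13 more lower only. Calcium handling and calcineurin genes had 1 of 41 (2.44%), Trdn, triadin of the calcium release complex (236.3), with 7 lower only, and ion channel and sodium pump genes had 2 of 32 (6.25%), including Kcnn2, a calcium-activated potassium channel (231.6). Dusp6 was in the lower set (93.45), with its nearest strong peak 318.9 kb away.

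**Figure D5:**
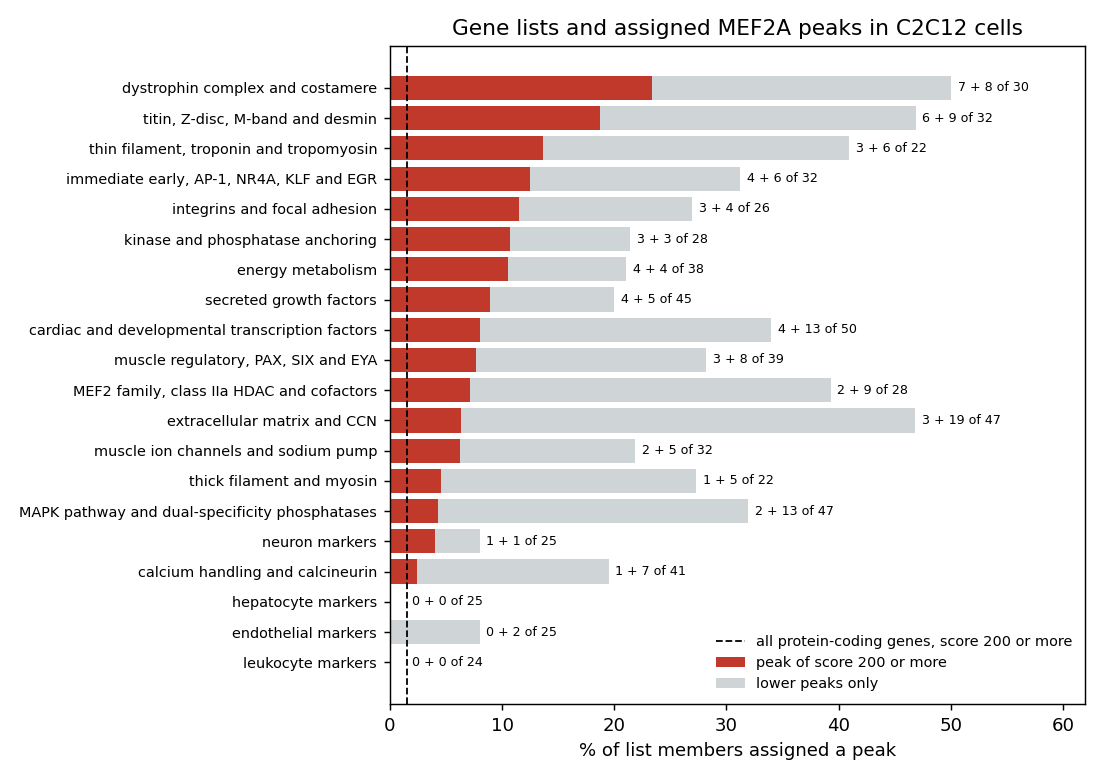
Share (%) of the genes in each of 20 lists with a strong peak (red) and with lower peaks only (grey), each bar followed by both counts and the number of genes, and a dashed line at the 1.53% of all protein-coding genes with a strong peak. The dystrophin and costamere list (23.3%) leads, and the red bars of the hepatocyte, leukocyte and endothelial lists are at 0.

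Markers of other cell types were counted as well. Of 4 lists for neurons, hepatocytes, leukocytes and endothelium, 1 of 99 genes had a strong peak (1.01%), Syn2, a synaptic vesicle protein (409.8), and 3 had lower peaks only. That share is near the 1.53% of all protein-coding genes. The median length of these 99 genes was 14.05 kb, against 17.2 kb for all genes. Of 8 skeletal muscle markers, Des alone had a strong peak. Acta1, Myh3, Mylpf, Tnnt3 and Ttn, the actin, embryonic myosin, fast light chain, fast troponin T and titin genes, had lower peaks only, and Myog and Ckm had none. Myod1 had no peak either. The strong peak nearest Myog lay 40.38 kb away, at the Ppfia4 promoter (634.7).

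Gene families picked by symbol were counted in the same way. Solute carriers had strong peaks at 7 of 389 genes (1.80%) and zinc finger proteins at 5 of 397 (1.26%). Fibroblast growth factors had 2 of 22 (9.09%), Fgf10 and Fgf7. Olfactory receptors had 0 of 1110 and vomeronasal receptors 0 of 355, families of short genes with medians of 0.95 and 0.963 kb. Hox, forkhead and integrin genes also had none, out of 39, 46 and 31, and had lower peaks only at 2, 7 and 5 genes. Families of this size are too small to tell a count of 0 from the 1.53% of all genes. In all, 11 of 26 families had no strong peak.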

How the data were processed

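MEF2A ChIP-exo peaks of 1 C2C12 library were analysed. The build mm10 and the tools BWA 0.5.9, CASAVA 1.7.0, SAMtools, Picard and MACS 1.4.2 are named without settings, per the submitters' processing notes. The authors deposited position, name and a score for each peak. No source used here states the scale of that score, so it only ranks and filters peaks. IgG libraries were not used here, and whether peak calling used them is not stated either. Printed coordinates are 1-based, taking the deposited starts as 0-based.

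Each peak was assigned to the nearest of 21887 protein-coding spans of the RefSeq table of GRCm38.p6 within 100 kb, counting for each gene where it lay in several. Start sites came from the RefSeq promoter table, which holds 17492 of the protein-coding genes, none on chromosome 18, so distances to start sites are upper limits. The motif search, planned for whole peaks, used the promoter windows only, as no genome was used. A match is a description of letters, not a binding site.

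Shares were compared by two-sided Fisher's exact test with Benjamini-Hochberg adjustment, with exact Clopper-Pearson intervals. The code was tested on simulated data. Members and lists were chosen with earlier results of these data known. Of 660 list entries, 658 matched by symbol and 2 by synonym. Named genes are those of the 30 highest peaks, of several strong peaks, the 10 highest within 1 kb of a gene end, those of the widest and narrowest peaks, of the threshold, and up to 4 per list by score. List members beyond 4, further promoters, microRNAs and genes of peaks without an assigned gene were named after their values were seen. Some genes that this rule takes are left unnamed. Tests ran in scipy 1.17.1 under Python 3.11.15, tables in pandas 2.3.3 with numpy 2.4.6, and plots in matplotlib 3.10.9.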

Additional observations from a re-analysis of the deposited data

How the results depend on the processing

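No paired analysis was possible because C2C12 MEF2A is a single library. Other settings were score thresholds of 150 and 300, limits of 10 and 50 kb, assignment by the nearest end of a span, merging of peaks under 1 kb apart, all annotated genes, lower peaks under a score of 100 only, and for the motif the central 100 bp or a looser consensus. Location without peaks over 2 kb or without chromosome 1, and the motif inside the peak or with a mismatch, were added after seeing the data. The share within 1 kb of a gene end reversed at a threshold of 150, being 6.70% in strong and 6.82% in lower peaks (exact test, adjusted p = 1). The 334 genes with a strong peak became 205 at a threshold of 300, by construction. Among the start-site shares added after seeing the data, peaks covering a start site fell to 2.13% at a threshold of 150 (exact test, adjusted p = 0.0657). Strong peaks on a promoter window rose to 7.08% at 300, against 2.80% of lower peaks (exact test, adjusted p = 0.00278). At that threshold the median widths were 427 and 137 bp, and the part of width in the share was not tested. The upstream share reversed at 150 (2.30% against 2.18%). Under the other 58 combinations of result and setting, tested shares kept their direction and their side of 0.05, and counts stayed within 1.5 times. Of single lists, 19 counts moved by over 1.5 times. Under nearest-end assignment the thick filament list lost Myl4 (0 genes) and the anchoring list fell to 1. Growth factors fell to 2 within 10 kb. At a threshold of 300, calcium handling fell to 0, the focal adhesion, MEF2, MAP kinase and ion channel lists to 1 each, and the cardiac and developmental factors to 2. Depth is unknown, and sites weaker than the deposited list were not analysed here.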

Other observations

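Among the 64 strong peaks over 100 kb from any protein-coding gene, 16 lay inside an annotated long noncoding RNA. The highest were nearest Fhit (1485.07), Ptbp2 (1075.72) and Thbs1 (858.8), a matricellular protein, 107.3 kb from its peak inside the noncoding Gm13986. The farthest peak from any such gene was 1240.5 kb from Slc10a2 (209.1).

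Letters other than the MEF2 consensus were also counted in the windows. The E-box CAGCTG, the kind bound by MyoD family factors, was in 8 of 23 windows under strong peaks (34.8%), 11 of 79 under lower peaks (13.9%) and 16.3% of all windows. The AP-1 element TGANTCA was in 3 of 23 (13.0%), 11 of 79 (13.9%) and 7.81%. The CArG box, also counted, was in 0 of 23, 1 of 79 (1.27%) and 1.63%. These counts take whole windows, and whether an element lay inside the peak was not counted. The E-box of Prkag3 lay outside the 14 bases that its peak covers. The Jarid2 window, with an E-box, counts more than once among those under lower peaks. No test was made of these counts, which were chosen after seeing the data.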
